A study of Mus musculus with 5 samples.

Results

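The genes described here are 42 mouse genes for chaperones of the cytosol and of mitochondria, taken by symbol from a table of 56691 Ensembl gene IDs. All 42 symbols were found. They comprise 8 genes of the HSP70 and HSP110 families, 2 of HSP90, 6 with a J-domain, 3 of the BAG family, 7 further co-chaperones, 2 small heat shock proteins, the 8 subunits of the CCT complex, 4 mitochondrial chaperones and 2 heat shock factors. The rule uses names and families and no measured value, but the members were chosen with earlier results of these data known. Natural killer (NK) cells, cytotoxic lymphocytes here from mouse spleen, were profiled by RNA-seq with 3 Fli1 KO libraries and 2 NTC libraries, as named in the labels. Both groups were edited with CRISPR, with Fli1 as the target in the first and NTC as the control in the second. FLI1, the protein targeted, is an ETS-family transcription factor. The sources used here do not give the strain, sex or age of the mice, the guides, the culture of the cells, or whether a library is 1 animal or a pool.

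Chaperones bind unfolded or half-made proteins and keep them from aggregating. HSP70 cycles on and off its clients with the help of J-domain proteins, which bring clients and start ATP hydrolysis, and of exchange factors such as the BAG and HSP110 proteins, which reset it. HSP90 receives clients from HSP70 through co-chaperones, among them many kinases and receptors, while CCT folds actin and tubulin inside a closed ring. Heat shock factor HSF1 binds repeats of GAA and TTC in promoters and switches on many of these genes under stress. Lymphocytes use the same machinery when they start to grow and make new protein.

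The libraries held 4718390 to 5643791 counts. Levels are in CPM, a gene's count relative to the library total, corrected with TMM factors. They are given per kb of exon where genes are compared with each other. All 10 NK markers stood over 3 times background, where background is the count density on 1453 odorant and pheromone receptor genes that lymphocytes do not use. Of 28 markers of T, B, myeloid, erythroid and platelet cells, 0 stood over it with all libraries pooled. Hba-a1 was at 0 in both NTC libraries and Camp at 0 in 1 Fli1 KO library. The summed level of the markers ran from 123 to 128 CPM in Fli1 KO and from 131 to 145 CPM in NTC. Background in NTC 2 alone was 8.52 counts per kb. There the platelet markers Ppbp (51 counts on 1083 bases) and Pf4 (29 on 721) stood over 3 times background. In Fli1 KO 1, at 7.54 counts per kb, the T cell markers Cd3g (100 on 3269) and Cd3d (46 on 1815) did so. Whether RNA of other cells adds to the chaperone values was not tested. Fli1 itself had 390, 320 and 361 CPM in Fli1 KO, against 322 and 279 CPM in NTC (log2 fold change 0.25, SE 0.14; edgeR adjusted p = 0.641). The groups overlapped, so the counts of the target do not check the labels. Early response genes such as Fos and Egr1, which come on within minutes of stimulation, summed to 2346 ± 550 CPM (SD, n = 3) in Fli1 KO and 536 ± 24.9 CPM (SD, n = 2) in NTC, and 7 of 11 were called higher by edgeR. Their part in the chaperone values was not tested. In bulk RNA, fewer cells of a type and less RNA per cell cannot be told apart.

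No chaperone gene was called between Fli1 KO and NTC cells. Of the 41 members with enough counts to test, 0 were called higher and 0 lower by edgeR's quasi-likelihood test at an adjusted p under 0.05, against 0.458% and 0.0883% of the 30580 genes tested (1.71% and 0.289% of those over 3 times background), and 0 were called by DESeq2 or limma-voom. At an unadjusted p under 0.05, 5 members (12.2%) were higher in Fli1 KO and 0 lower, where all genes gave 5.23% higher and 3.71% lower. Those 5 are Hsp90aa1, Hspa2, Dnaja1, Dnajb1 and Dnajb6. Well-expressed genes as a whole leaned the same way: of the 7609 genes over 3 times background, 15.4% were higher and 2.88% lower at an unadjusted p under 0.05. Of the 33 members over it, 5 (15.2%) were higher and 0 lower. The share of the members is therefore close to that of other genes at a measurable level.

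The sign of the small differences depends on the scaling. With TMM factors, 36 of 41 members (87.8%) had a positive log2 fold change, against 47.6% of all genes tested and 70.5% of those over 3 times background. Scaled by library size only, 21 of 41 were positive, against 30.8% of all genes and 46.9% of those over 3 times background, and the member median was 0.0033. Fitted on genes over 3 times background alone, 15 of 33 were positive, against 49.2% of those genes. Without NTC 2, 22 of 41 were positive. The 5 genes named above were positive in every one of these fits. With TMM factors the members' median log2 fold change was 0.13, with a range of −0.10 to 0.65, beside a median of −0.02 over all genes tested and 0.11 over those above 3 times background. In 11 members (26.8%) all 3 Fli1 KO libraries lay above both NTC libraries, and in 0 members below, where all genes gave 11.9% above and 13.7% below and those over 3 times background gave 26.3% and 7.81%. Of the 33 members over 3 times background, 6 (18.2%) lay above in this way; the 11 include Hspa1a and Hspb8, which are below background. The summed level of the 42 genes was 4874, 3664 and 4625 CPM in Fli1 KO, against 4452 and 3403 CPM in NTC. NTC 1 thus exceeded Fli1 KO 2, and the groups overlapped. The count of calls moved with single libraries: it was 4 without NTC 1 (Hsp90aa1, Dnajb1, Stip1 and Tcp1), where 2.14% of all genes were called higher, 1 without Fli1 KO 2 (Hsp90aa1), where 0.748% were, and 0 without each of the other 3 libraries. With the replicate number as a block it was 6, where 2.38% of all genes were called higher. In that fit Fli1 KO 3, with no NTC library of its number, does not inform the group difference.

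**Figure D1:**
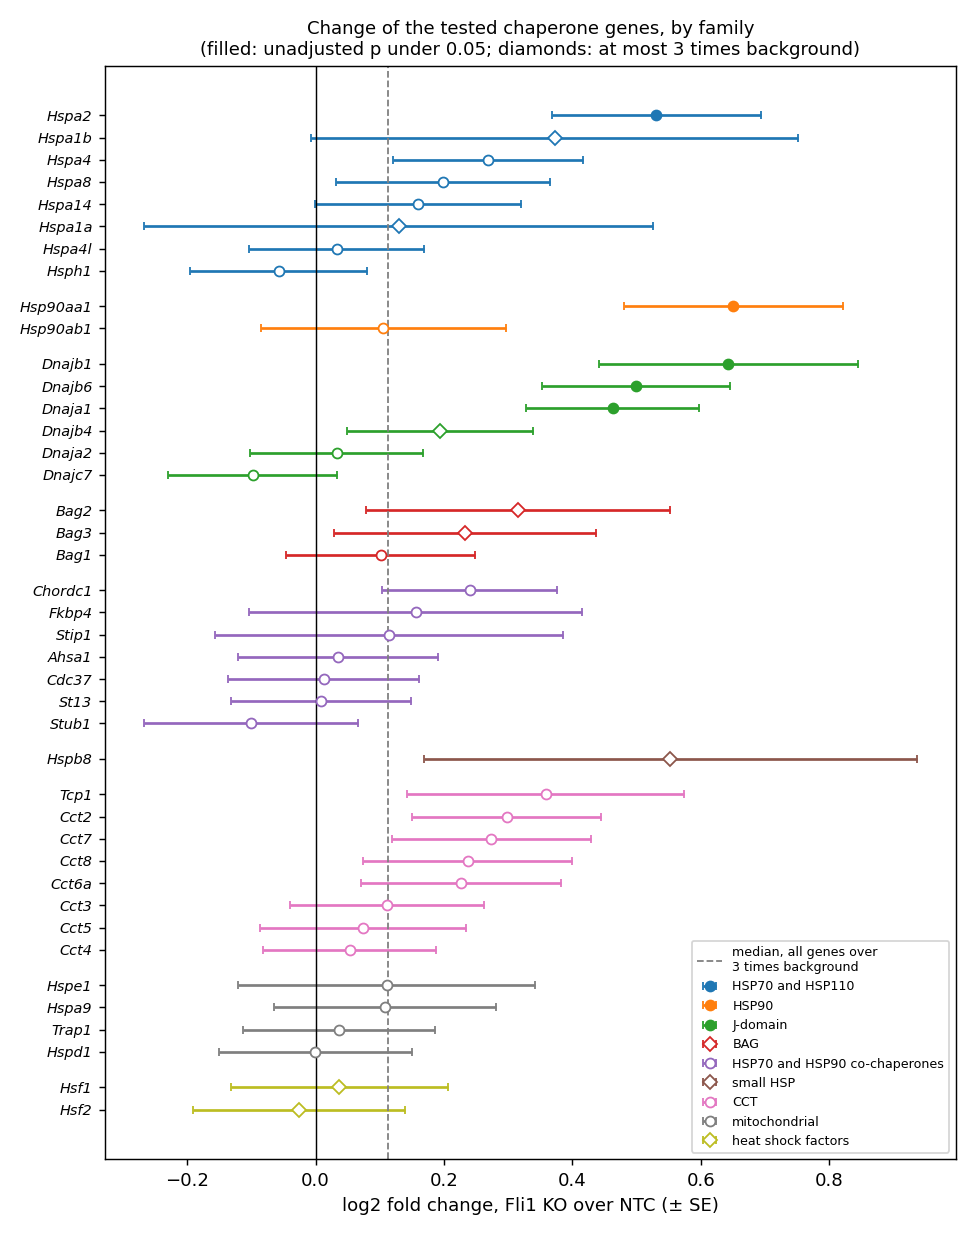
Log2 fold change of each of the 41 tested chaperone genes (x axis, Fli1 KO over NTC, bars ± SE), grouped by family down the page. Filled symbols mark the 5 genes with an unadjusted p under 0.05, diamonds genes at most 3 times background, and the dashed line the median of 0.11 over all genes above 3 times background; 36 of 41 points lie right of 0 with this TMM scaling, and 21 of 41 would with library size only.

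The HSP90 pair holds a member whose groups did not overlap, Hsp90aa1, and the most abundant member, Hsp90ab1. Hsp90aa1 (ENSMUSG00000021270, chr12:110690605-110702728, minus strand, mm10), the stress-inducible cytosolic HSP90, had 113, 79.9 and 96.1 CPM in Fli1 KO, against 72.8 and 49.3 CPM in NTC. Every Fli1 KO library lay above both NTC libraries, by the smallest margin in Fli1 KO 2. Fli1 KO averaged 96.3 ± 16.4 CPM (SD, n = 3) and NTC averaged 61.1 ± 16.6 CPM (SD, n = 2), for a fitted log2 fold change of 0.65 (SE 0.17; edgeR adjusted p = 0.114). The value ran from 0.41 without NTC 2 to 0.98 without NTC 1. It is the highest among the members in this fit, but Dnajb1 exceeds it with the replicate block and without NTC 1, Fli1 KO 2 or Fli1 KO 3, and Hspa2, Dnaja1 and Dnajb6 exceed it without NTC 2. Hspb8 and Hspa1b, both below background, also exceed it in some fits. Without Fli1 KO 1, for example, Hspb8 had 0.66 and Hsp90aa1 0.53. Without a filter on low counts Hsp90aa1 was called (log2 fold change 0.67, edgeR adjusted p = 0.0160). Hsp90ab1 (chr17:45567775-45573271, minus strand), the constitutive paralog, had 919, 665 and 989 CPM in Fli1 KO, against 969 and 625 CPM in NTC (log2 fold change 0.11, SE 0.19; edgeR adjusted p = 0.928). The groups overlapped, with Fli1 KO 2 and NTC 2 both low. Per kb of exon, Hsp90ab1 was the most abundant of the 42 genes at 278 CPM, and Hsp90aa1 stood at 20.9 CPM. Genes with sequence nearly identical to Hsp90aa1 (3, at 95% identity or more over at least 300 bases) held 7.01% as many counts as it did, so some of its reads may be placed elsewhere. Reads that match several genes may also have been dropped, and with the counter not given, that loss is not known. Its level beside that of Hsp90ab1 is uncertain to that extent.

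A ratio within a library does not depend on scaling. The ratio of Hsp90aa1 to Hsp90ab1 counts was 0.123, 0.12 and 0.0972 in Fli1 KO, against 0.0751 and 0.0789 in NTC. Both NTC libraries lay below all 3 Fli1 KO libraries although NTC 1 and NTC 2 differed in the level of either gene. Its mean was 0.113 ± 0.0140 (SD, n = 3) in Fli1 KO and 0.0770 ± 0.00267 (SD, n = 2) in NTC, a log2 difference of 0.55, with an exact two-sided permutation p = 0.1 (adjusted 0.3 over 3 ratios), which is the smallest that 3 against 2 libraries allow. The difference stayed between 0.49 and 0.66 when each library was left out. The ratio of HSP10 to HSP60 (Hspe1 over Hspd1) was 0.158, 0.122 and 0.141 in Fli1 KO, against 0.118 and 0.146 in NTC. Its groups overlapped (exact two-sided permutation p = 0.7, adjusted 0.9), and the sign of the log2 difference turned when single libraries were left out (range −0.067 to 0.24). The third ratio, Hspa1a plus Hspa1b over Hspa8, was 0.00734, 0.00993 and 0.00671 in Fli1 KO, against 0.00603 and 0.00963 in NTC, but both genes of its numerator are below background, so nothing is read from it.

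**Figure D2:**
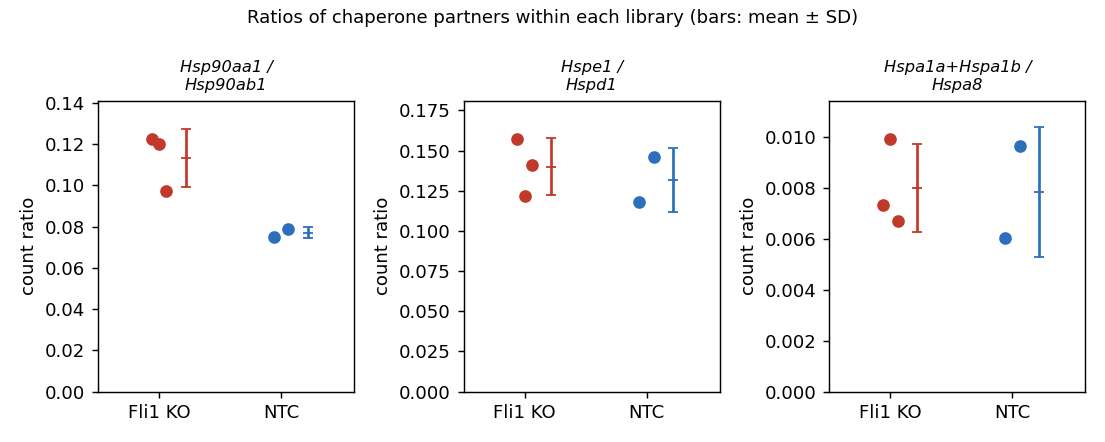
Count ratio within each library (y axis, no unit) for Hsp90aa1 over Hsp90ab1, Hspe1 over Hspd1, and Hspa1a plus Hspa1b over Hspa8; points are libraries, bars the mean ± SD. In the first panel the 3 Fli1 KO libraries (0.0972 to 0.123) lie above both NTC libraries (0.0751 and 0.0789); for Hspe1 over Hspd1 the groups overlap, and the third ratio has a numerator below background.

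Among the 8 genes of the HSP70 and HSP110 families, Hspa2 had the largest difference. Hspa2 (chr12:76404176-76406938, plus strand), an HSP70 best known from male germ cells, had 27.4, 27.3 and 26.4 CPM in Fli1 KO, against 19.6 and 17.8 CPM in NTC. The libraries of each group lay close together and the groups did not overlap, with averages of 27.0 ± 0.563 CPM (SD, n = 3) in Fli1 KO and 18.7 ± 1.30 CPM (SD, n = 2) in NTC. The log2 fold change was 0.53 (SE 0.16; edgeR adjusted p = 0.227). Hspa8 (chr9:40800984-40810087, plus strand), the constitutive HSP70 that serves most cytosolic clients, had 770, 557 and 721 CPM in Fli1 KO, against 690 and 499 CPM in NTC, and the groups overlapped (log2 fold change 0.20, SE 0.17; edgeR adjusted p = 0.787). It was the second most abundant member per kb of exon, at 151 CPM. The HSP110 genes Hspa4, Hspa4l and Hsph1, whose products act as exchange factors for HSP70, overlapped between groups and had log2 fold changes of 0.27, 0.03 and −0.06. Hspa14, an HSP70 that works at the ribosome, had 0.16. Hspa14 shares exon sequence on the same strand with Gm45902. The family's median was 0.18, with 7 of 8 positive with TMM factors (Hspa4l turned negative with library size only) and summed levels of 1004 ± 134 CPM (SD, n = 3) in Fli1 KO and 878 ± 173 CPM (SD, n = 2) in NTC. Without NTC 2 that median was 0.04.

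**Figure D3:**
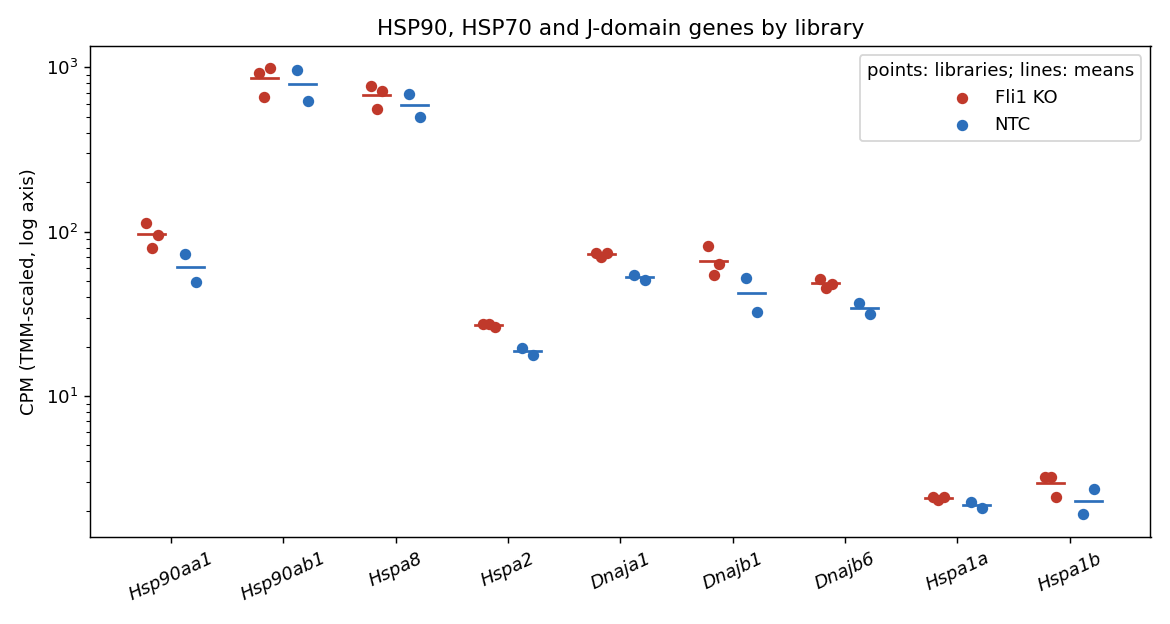
Level of 9 HSP90, HSP70 and J-domain genes in each library (y axis, TMM-scaled CPM on a log axis; points are libraries, lines group means). The 3 Fli1 KO points lie above both NTC points for Hsp90aa1, Hspa2, Dnaja1, Dnajb1, Dnajb6 and, at 2.09 to 2.42 CPM and below background, Hspa1a; Hsp90ab1 and Hspa8 lie highest and overlap.

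Hspa1a and Hspa1b, the classical stress-inducible HSP70 genes, were not measurable here. Hspa1a had 2.42, 2.32 and 2.42 CPM in Fli1 KO, against 2.25 and 2.09 CPM in NTC, and Hspa1b 3.23, 3.21 and 2.42 CPM in Fli1 KO, against 1.91 and 2.72 CPM in NTC. These levels were 0.495 and 0.611 times background, so neither expression nor a difference is read from them. The genes are 99.2% identical over their aligned transcripts, which makes the split of reads between them uncertain, and reads that match both may have been dropped. Their promoters are shown because they are the textbook heat shock promoters and near copies as well: 296 of 300 bases are identical in place. The windows run from 250 bases before to 50 after the annotated start (RefSeq, GRCm38.p6), written 5′ to 3′ along the gene, and capitals mark the heat shock pair, GAANNTTC or TTCNNGAA. Hsph1 is shown beside them for its triplet, which is a pair extended after NN by a further GAA or TTC and is likewise in capitals.
Hspa1a promoter, chr17:34972107-34972406, minus strand: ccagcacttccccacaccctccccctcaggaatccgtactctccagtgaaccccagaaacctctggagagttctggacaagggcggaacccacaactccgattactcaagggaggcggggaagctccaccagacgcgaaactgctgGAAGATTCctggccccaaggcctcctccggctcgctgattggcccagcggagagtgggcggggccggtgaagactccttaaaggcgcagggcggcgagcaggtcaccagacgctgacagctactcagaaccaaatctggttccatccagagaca
Hspa1b promoter, chr17:34959189-34959488, minus strand: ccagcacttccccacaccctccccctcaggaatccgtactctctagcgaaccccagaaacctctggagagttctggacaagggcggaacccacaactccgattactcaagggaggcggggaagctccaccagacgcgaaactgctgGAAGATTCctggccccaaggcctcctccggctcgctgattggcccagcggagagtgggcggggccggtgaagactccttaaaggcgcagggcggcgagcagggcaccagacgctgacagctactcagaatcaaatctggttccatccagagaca
Hsph1 promoter, chr5:149636266-149636565, minus strand: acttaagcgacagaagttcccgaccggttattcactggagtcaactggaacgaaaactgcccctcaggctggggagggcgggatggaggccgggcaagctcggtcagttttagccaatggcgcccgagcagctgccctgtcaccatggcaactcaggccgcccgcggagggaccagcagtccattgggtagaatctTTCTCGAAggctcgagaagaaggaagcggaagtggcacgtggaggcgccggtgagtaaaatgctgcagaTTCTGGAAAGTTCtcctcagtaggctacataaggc

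The J-domain genes held 3 of the 5 members with an unadjusted p under 0.05. Dnaja1 (chr4:40722150-40737149, plus strand), a general cytosolic partner of HSP70, had 74.6, 69.9 and 74.0 CPM in Fli1 KO, against 54.6 and 51.0 CPM in NTC. The groups were narrow and apart, at 72.8 ± 2.56 CPM (SD, n = 3) in Fli1 KO and 52.8 ± 2.57 CPM (SD, n = 2) in NTC, with a log2 fold change of 0.46 (SE 0.13; edgeR adjusted p = 0.184). Dnajb6 (chr5:29735688-29818134, plus strand), known for keeping polyglutamine proteins from aggregating, had 51.9, 45.7 and 47.8 CPM in Fli1 KO, against 36.6 and 31.8 CPM in NTC. It showed the same separation, with a log2 fold change of 0.50 (SE 0.15; edgeR adjusted p = 0.188). Dnajb1 (chr8:83608193-83612653, plus strand), the stress-inducible J-domain protein also called HSP40, had 81.9, 54.6 and 63.9 CPM in Fli1 KO, against 52.4 and 32.6 CPM in NTC. Its libraries spread more widely, and Fli1 KO 2 exceeded NTC 1 by little (log2 fold change 0.64, SE 0.20; edgeR adjusted p = 0.280). The value of Dnajb1 rested on NTC 2: it was 0.36 without that library and 1.05 without NTC 1.

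The other J-domain genes had smaller differences. Dnajb4 lay higher in all 3 Fli1 KO libraries, at 41.9 ± 3.47 CPM (SD, n = 3) in Fli1 KO and 36.6 ± 0.410 CPM (SD, n = 2) in NTC, with a log2 fold change of 0.19 (edgeR adjusted p = 0.755). Dnaja2, a close relative of Dnaja1, overlapped between groups, with a log2 fold change of 0.03. Dnajc7, which can hold HSP70 and HSP90 at once, had the highest CPM of the family, with 91.8, 99.7 and 108 CPM in Fli1 KO, against 108 and 105 CPM in NTC; the groups overlapped (log2 fold change −0.10, SE 0.13; edgeR adjusted p = 0.890). Over the 6 genes the median log2 fold change was 0.33, 5 were positive (Dnaja2 turned negative with library size only), and in 4 all Fli1 KO libraries lay above both NTC libraries, as in 11.9% of all genes tested and 26.3% of those over 3 times background. The summed level was 428 ± 26.2 CPM (SD, n = 3) in Fli1 KO and 368 ± 32.4 CPM (SD, n = 2) in NTC, and the median was 0.20 when counts were scaled by library size only. A list of 11 further J-domain genes outside the members, 8 of them over 3 times background, was set beside these without a test. It leaves out Dnaja3, Dnajc19 and Hscb, placed with the mitochondrial partners, which had log2 fold changes of −0.17, 0.02 and 0.32. The median log2 fold change of the 11 was 0.04, with 7 positive and 4 negative. Of those 11, 0 had an unadjusted p under 0.05, and 1 had all Fli1 KO libraries above both NTC libraries. Exons of Dnaja1 and Smu1, and of Dnajb6 and Gm5129, overlap on opposite strands, and the sources used here do not say whether counting used strand, so reads there cannot be told apart. Near copies held 7.64% as many counts as Dnaja1 and 4.94% as many as Dnajb6.

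The promoter windows of Dnajb6 and Dnaja1 are shown because these genes have an unadjusted p under 0.05 and heat shock letters near the start. Dnajb4, Bag3 and Chordc1, whose groups also did not overlap, hold a pair too, with smaller log2 fold changes of 0.19, 0.23 and 0.24. Groups overlapped in Hsph1, which holds a triplet and had −0.06. They also overlapped in others with a pair: Cct2 (0.30), Cct6a (0.23), Fkbp4 (0.16), Hspe1 (0.11), Cct5 (0.07), Cdc37 (0.01), Hspd1 (−0.00019) and Stub1 (−0.10). Hspa1a, Hspa1b, Hspb1 and Hspb8, below background, hold a pair as well. Whether the letters go with the differences was not tested. Capitals mark the triplet in Dnajb6, the pair in Dnaja1, and in Dnaja1 also the ETS letters CCGGAAGT, read on the opposite strand just after the start. Dnajb6 and Dnaja1 have further annotated starts, and the window shown is the one farthest upstream; the other Dnaja1 windows hold neither the pair nor the ETS letters. The windows of Dnajb1 and Hspa2 held none of these letters, which says only that the letters are not there.
Dnajb6 promoter, chr5:29735648-29735947, plus strand: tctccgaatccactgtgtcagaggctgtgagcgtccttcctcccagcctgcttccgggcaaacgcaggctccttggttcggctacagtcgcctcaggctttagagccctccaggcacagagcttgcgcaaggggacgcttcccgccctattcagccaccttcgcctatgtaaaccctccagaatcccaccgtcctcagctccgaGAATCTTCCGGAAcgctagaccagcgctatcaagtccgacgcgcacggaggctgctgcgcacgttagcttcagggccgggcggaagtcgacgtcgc
Dnaja1 promoter, chr4:40722218-40722517, plus strand: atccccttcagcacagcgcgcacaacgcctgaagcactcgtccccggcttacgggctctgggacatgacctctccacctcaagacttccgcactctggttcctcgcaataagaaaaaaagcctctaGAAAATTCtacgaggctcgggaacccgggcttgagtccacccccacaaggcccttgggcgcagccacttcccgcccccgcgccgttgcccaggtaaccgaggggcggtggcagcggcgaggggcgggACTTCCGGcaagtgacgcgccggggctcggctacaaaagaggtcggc

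The BAG genes and the further co-chaperones of HSP70 and HSP90 showed small differences. Bag1, an exchange factor that links HSP70 to the proteasome, had 102, 74.2 and 97.7 CPM in Fli1 KO, against 89.3 and 80.8 CPM in NTC, with overlap (log2 fold change 0.10, SE 0.15; edgeR adjusted p = 0.903). Bag2, an inhibitor of the ubiquitin ligase CHIP, had 10.3, 7.67 and 8.26 CPM in Fli1 KO, against 7.46 and 6.48 CPM in NTC. Its Fli1 KO libraries lay just above both NTC libraries, at 1.67 times background (log2 fold change 0.32, SE 0.24; edgeR adjusted p = 0.755). Bag3, which directs clients to autophagy, likewise lay higher in all 3 Fli1 KO libraries, at 11.8 ± 1.17 CPM (SD, n = 3) in Fli1 KO and 10.0 ± 0.290 CPM (SD, n = 2) in NTC, and stood at 2.76 times background. The family median was 0.23. Among genes over 3 times background only Bag1 remains, and its value refitted on those genes was −0.02. The summed level of the family was 126, 93.3 and 117 CPM in Fli1 KO, against 107 and 97.1 CPM in NTC. Its groups overlapped, with Fli1 KO 2 the lowest library.

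Of the 7 further co-chaperones, Chordc1 was the single gene whose groups did not overlap. Chordc1, an HSP90-binding protein with zinc-binding CHORD domains, had 67.4, 66.2 and 59.4 CPM in Fli1 KO, against 51.8 and 57.2 CPM in NTC. The lowest Fli1 KO library lay close above NTC 2 (log2 fold change 0.24, SE 0.14; edgeR adjusted p = 0.642). Cdc37, which loads kinases onto HSP90 and had the highest CPM of these 7, stood at 230.0, 171 and 214 CPM in Fli1 KO, against 223 and 182 CPM in NTC, and the group ranges coincided (log2 fold change 0.01, SE 0.15; edgeR adjusted p = 0.992). The remaining 5 overlapped between groups: Stip1 (HOP), which joins HSP70 to HSP90, had a log2 fold change of 0.11, Fkbp4, an HSP90 partner of steroid receptors, 0.16, Ahsa1, which speeds the ATPase of HSP90, 0.03, St13 (HIP), which steadies HSP70 on its client, 0.01, and Stub1 (CHIP), the ubiquitin ligase that marks chaperone clients for destruction, −0.10. Stip1 spread from 38.9 to 70.2 CPM between the NTC libraries alone. The family median was 0.03, with summed levels of 559 ± 80.1 CPM (SD, n = 3) in Fli1 KO and 537 ± 89.5 CPM (SD, n = 2) in NTC. The Chordc1 window is shown because it is the densest in heat shock letters, with 5 pairs and 3 triplets, marked in capitals.
Chordc1 promoter, chr9:18292017-18292316, plus strand: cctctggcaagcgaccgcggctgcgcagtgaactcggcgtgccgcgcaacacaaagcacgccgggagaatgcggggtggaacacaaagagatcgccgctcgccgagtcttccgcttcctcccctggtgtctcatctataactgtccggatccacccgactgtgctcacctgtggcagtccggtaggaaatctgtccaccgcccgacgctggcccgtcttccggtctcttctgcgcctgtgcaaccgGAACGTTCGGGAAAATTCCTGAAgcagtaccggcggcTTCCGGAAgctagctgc

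The small heat shock proteins, which hold unfolded proteins without using ATP, were at or below background. Hspb8, the partner of Bag3 in autophagy, had 2.82, 4.46 and 2.62 CPM in Fli1 KO, against 2.60 and 1.88 CPM in NTC, at 0.954 times background (log2 fold change 0.55, SE 0.38; edgeR adjusted p = 0.730). Hspb1, or HSP25, had 1.61, 0.357 and 0.806 CPM in Fli1 KO, against 1.21 and 1.25 CPM in NTC, at 0.641 times background, and was the single member with too few counts to test. No expression or difference is read from either gene. Genes nearly identical to Hspb1 (2) held 315% as many counts as it did, so its own count is uncertain as well.

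The CCT complex, the closed-ring folding machine of the cytosol, had overlapping groups in all 8 subunits. With TMM factors all 8 log2 fold changes were positive, where 70.5% of genes over 3 times background were; Cct3, Cct4 and Cct5 were negative with library size only and when fitted on genes over 3 times background, Cct3 and Cct5 also without NTC 2, and Cct5 without Fli1 KO 1. Their summed level was 1197, 851 and 1065 CPM in Fli1 KO, against 1000 and 802 CPM in NTC. NTC 1 exceeded Fli1 KO 2, so the sum did not separate the groups. The sum averaged 1038 ± 175 CPM (SD, n = 3) in Fli1 KO and 901 ± 140 CPM (SD, n = 2) in NTC. Cct2 (chr10:117051001-117063814, minus strand), the most abundant subunit, had 221, 158 and 190 CPM in Fli1 KO, against 162 and 147 CPM in NTC. Fli1 KO 2 fell between the NTC libraries (log2 fold change 0.30, SE 0.15; edgeR adjusted p = 0.579). The log2 fold changes of the others were 0.36 for Tcp1, which is subunit 1, 0.27 for Cct7, 0.24 for Cct8, 0.23 for Cct6a, 0.11 for Cct3, 0.07 for Cct5 and 0.05 for Cct4. The family median was 0.23; it was 0.05 without NTC 2 and 0.41 without NTC 1, so its size rests on which NTC library is used. Although the subunits build a ring in equal numbers, their levels per kb of exon ran from 11.2 CPM for Cct3 to 68.6 CPM for Cct2, with Cct5 next at 61.1 CPM. The exon length used joins all annotated exons of a gene, and reads were enriched by probe capture, so these levels are rough.

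**Figure D4:**
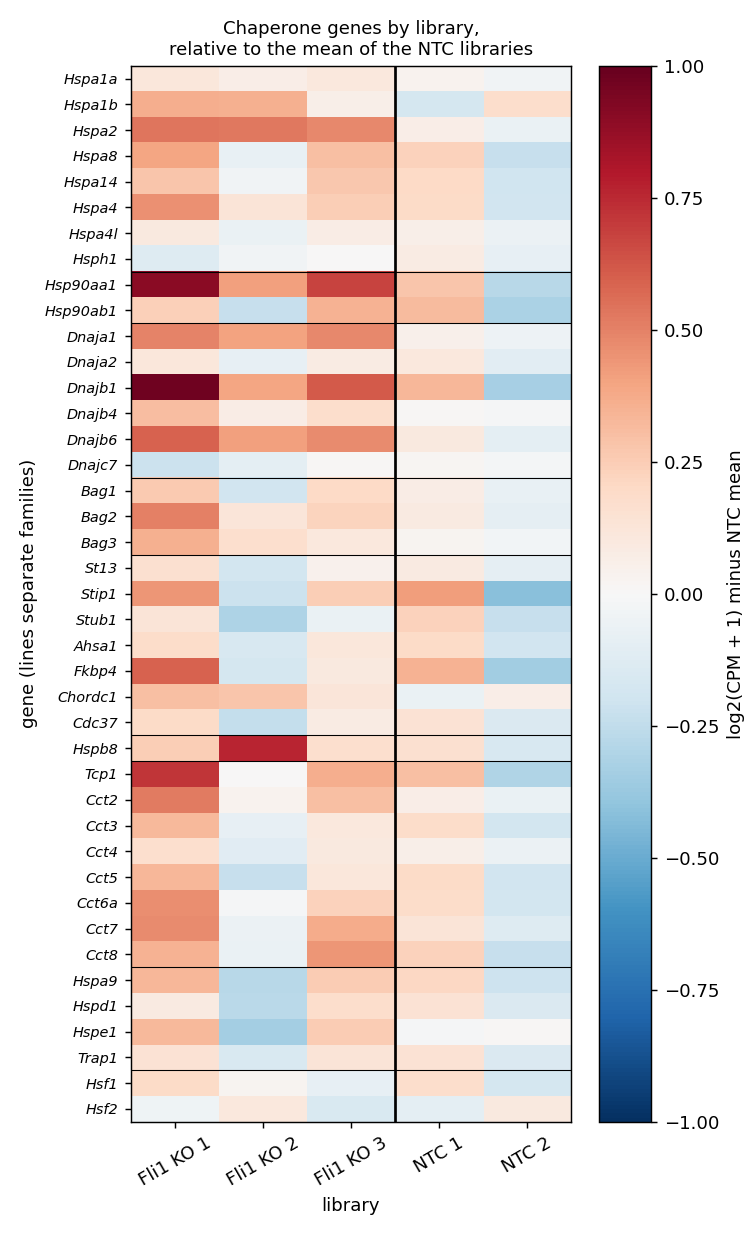
Level of each of the 41 tested chaperone genes in each library (color, log2(CPM + 1) minus the mean of the NTC libraries; red is higher), with families separated by lines. Fli1 KO 1 is the highest library in 31 genes and NTC 2 the lowest in 25, and Fli1 KO 2 is the lowest in 11.

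The mitochondrial chaperones did not separate the groups. Hspa9, the mitochondrial HSP70 that pulls proteins through the import channel, had 121, 79.2 and 115 CPM in Fli1 KO, against 111 and 83.4 CPM in NTC, with overlap (log2 fold change 0.11, SE 0.17; edgeR adjusted p = 0.917). Hspd1 (HSP60), which forms the folding chamber of the matrix, had 80.7, 63.0 and 85.8 CPM in Fli1 KO, against 83.9 and 68.7 CPM in NTC, and the group means were nearly equal. Hspe1 (HSP10), the lid of that chamber, had 12.7, 7.67 and 12.1 CPM in Fli1 KO, against 9.88 and 10.0 CPM in NTC, so that its Fli1 KO libraries lay on both sides of NTC. Trap1, the mitochondrial HSP90, had a log2 fold change of 0.04. The family median was 0.07, and the summed level was 242 ± 42.6 CPM (SD, n = 3) in Fli1 KO and 232 ± 37.4 CPM (SD, n = 2) in NTC. Hspd1 and Hspe1 lie head to head on chromosome 1 and overlap there on opposite strands. The Hspe1 window is shown because 285 of its 300 bases also lie in an Hspd1 window and because it holds 3 overlapping heat shock pairs and 2 triplets, in capitals.
Hspe1 promoter, chr1:55087898-55088197, plus strand: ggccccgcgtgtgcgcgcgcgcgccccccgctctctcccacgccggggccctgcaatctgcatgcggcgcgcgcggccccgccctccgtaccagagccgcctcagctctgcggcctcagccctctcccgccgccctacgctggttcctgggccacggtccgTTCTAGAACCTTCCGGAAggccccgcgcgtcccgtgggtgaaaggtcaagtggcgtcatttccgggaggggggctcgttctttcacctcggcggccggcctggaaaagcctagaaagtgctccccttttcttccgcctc

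The heat shock factors, which control many of the genes above, overlapped between the groups. Hsf1, the main stress regulator, had 27.4, 24.4 and 22.6 CPM in Fli1 KO, against 27.0 and 21.1 CPM in NTC, at 2.21 times background (log2 fold change 0.04, SE 0.17; edgeR adjusted p = 0.978). Hsf2, a relative active in development, averaged 23.2 ± 2.18 CPM (SD, n = 3) in Fli1 KO and 23.8 ± 2.45 CPM (SD, n = 2) in NTC, at 1.56 times background. HSF1 is controlled mainly after its RNA is made, so RNA levels do not report its activity.

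Set side by side, the families show which libraries lie high or low. Of 41 members, 31 (75.6%) were highest in Fli1 KO 1, against 46.2% of all genes over 3 times background, and 25 (61%) were lowest in NTC 2, against 48.6%. Fli1 KO 2 was lowest in 11 (26.8%), against 21.4%. Only 33 of the 41 members stood over 3 times background, so the sets compared here and in the medians that follow are not alike. By library, the median over the members of log2(CPM + 1) minus the NTC mean was 0.32, −0.06 and 0.17 in Fli1 KO, against 0.14 and −0.14 in NTC, and over all genes above 3 times background 0.20, 0.01 and 0.14 in Fli1 KO, against 0.07 and −0.07 in NTC. Fli1 KO 2 thus lay between the NTC libraries for the members as for other genes. In the J-domain and BAG families the 3 Fli1 KO libraries lay above both NTC libraries by this measure. Of the 3 BAG genes only Bag1 stood over 3 times background, and it overlapped between groups, as did the summed BAG level. The HSP70 and HSP110, HSP90, co-chaperone, CCT and mitochondrial families and the heat shock factors overlapped. Differences between families were not tested.

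**Figure D5:**
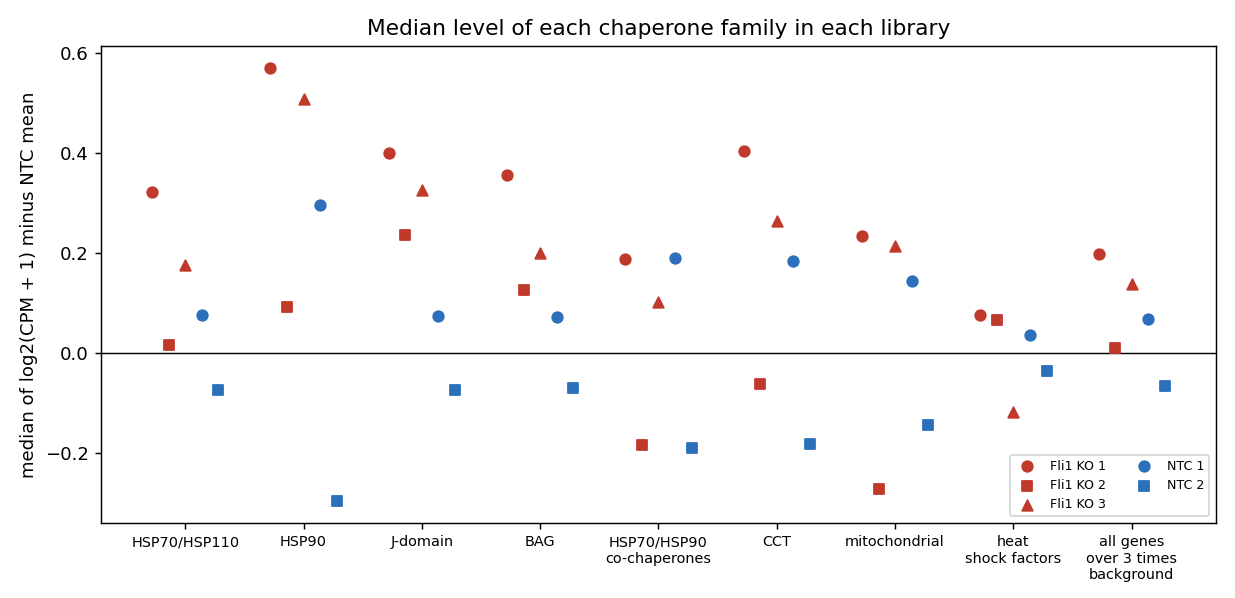
Median over each family's tested genes of log2(CPM + 1) minus the mean of the NTC libraries (y axis), for 3 Fli1 KO libraries (red) and 2 NTC libraries (blue), with all genes over 3 times background at the right. NTC values mirror each other by construction. The J-domain and BAG medians of all 3 Fli1 KO libraries exceed both NTC libraries, but only 1 BAG gene is over 3 times background and the summed BAG level overlaps. The small heat shock proteins are left out, as 1 gene was tested.

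Heat shock letters were present in many of these promoters. RefSeq windows matched 35 of 42 members, with Hsp90aa1, Hsp90ab1, Hspa8, St13, Cct4, Hspa9 and Hsf1 not among them. At least 1 window held the pair in 18 of the 35 (51.4%), against 17% of 27025 genes, or 15.1% of 32851 windows of the same length. The triplet was in 5 (14.3%), against 0.662% of genes and 0.603% of windows. The ETS letters CCGGAAGT were in 6 (17.1%; Ahsa1, Cct8, Dnaja1, Dnajc7, Stub1 and Tcp1), against 4.31% of genes and 3.89% of windows, both strands counted, and overlapped a heat shock pair in 0. The genes and windows used for comparison were taken whether or not the genes are expressed here. A difference in any of these letters between the members and well-expressed genes alone was not tested. Some windows share sequence (Hspa1a with Hspa1b, Hspd1 with Hspe1), and each triplet also holds pairs. The 5 genes with a triplet had log2 fold changes of 0.50 for Dnajb6, 0.24 for Chordc1, 0.11 for Hspe1 and −0.06 for Hsph1, with Hspd1 level between the groups. The 6 with the ETS letters ran from −0.10 for Stub1 and Dnajc7 to 0.46 for Dnaja1. A match is a string in the sequence, not a site of binding.

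Other genes of the chaperone network, 65 of them tested, were set beside the members. They hold further HSP90 co-chaperones, J-domain proteins, HSP70 relatives, partners of CCT and of mitochondrial import, nascent chain factors and stress genes. 1 was called higher in Fli1 KO (1.54%, against 0.458% of all genes), 0 were called lower, 7 (10.8%, against 5.23%) had an unadjusted p under 0.05 and were higher, and 48 (73.8%, against 47.6%) were positive, with a median log2 fold change of 0.10. All Fli1 KO libraries lay above both NTC libraries in 20% and below both in 9.23%, against 11.9% and 13.7% of all genes. Most of the network, 51 of 65, stood over 3 times background. Of all genes over it, 1.71% were called higher, 15.4% were higher at an unadjusted p under 0.05 and 70.5% were positive. In 26.3% of them all Fli1 KO libraries lay above, and in 7.81% below. The network's shares are thus not raised beside those of well-expressed genes, apart from small margins in the positive and below shares. Whether the network differs from the members was not tested. The count called higher was 0 without Fli1 KO 1, Fli1 KO 3 or NTC 2, 2 without Fli1 KO 2 and 3 without NTC 1. Of the 7, 6 were not called. They are Lonp1, the mitochondrial matrix protease, at 0.59, Grpel1, the exchange factor of Hspa9, at 0.51, Pdcl, a CCT cofactor, at 0.43, Bag5 at 0.39, Hspa13 at 0.36 and Ubb, which encodes ubiquitin, at 0.30, with edgeR adjusted p from 0.182 for Lonp1 to 0.524 for Ubb. In each of them all Fli1 KO libraries lay above both NTC libraries.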

How the data were processed

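Raw whole-number counts for each Ensembl gene ID were deposited for 5 libraries, with 0 further sample columns. Per the labels' protocols, libraries were made from 10 ng of total RNA by probe capture. FastQC 0.12.0, Trimmomatic 0.39, STAR 2.7.11 and mm10 are named in the submitters' processing notes. The sources used here do not give the counter, its strand setting or the annotation release. Totals ran from 4718390 to 5643791.

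IDs were matched to symbols (52073 of 56691, 91.9%), with positions and exon lengths from GENCODE M21 on GRCm38 (mm10). Genes kept by filterByExpr (minimum count 10; 30580 of 52871 with any count) were compared with edgeR 4.0.16 in R 4.3.3 (TMM, robust quasi-likelihood, Benjamini-Hochberg over all genes; called under 0.05; common biological coefficient of variation 0.12). Background was the count per kb on 1453 receptor genes (5422 kb). Near copies were found with BLAST 2.17.0. The fit was tested on simulated data. Alternatives were other scalings and filters, each library left out, a block for the replicate number, limma-voom (limma 3.58.1) and DESeq2 1.42.0.

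The members and lists were chosen with earlier results of these data known. Values are given for called members, those with an unadjusted p under 0.05, and the member with the smallest p and with the highest mean CPM in each family; of the wider network, called genes and up to 6 others with the smallest p; 1 gene of that network is not reported here. Others are given by counts and ranges, or with values where they illustrate a role. The labels number the replicates without saying that each is its own animal; p-values therefore reflect the spread among these libraries alone, which may be technical.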

Additional observations from a re-analysis of the deposited data

How the results depend on the processing

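The 5 members with an unadjusted p under 0.05 kept a positive log2 fold change under all 13 alternatives, and 0 members were called lower under any of them. The count called higher was 1 with no low-count filter (Hsp90aa1), 6 with the replicate block, 0 to 4 when single libraries were left out, and 0 under the rest. Scaling by library size only put the median of all genes at −0.14 instead of −0.02; the medians were then 0.20 for the J-domain family, 0.10 for BAG and −0.12 for the heat shock factors, and 15 members turned negative, among them Hsp90ab1 (−0.033), Bag1 (−0.032), Cdc37 (−0.12), Hspa9 (−0.030) and Hsf1 (−0.094). Refitted on genes over 3 times background, the BAG median was −0.023 and 14 members turned negative, among them Hsp90ab1 at −0.0093, Bag1 at −0.023, Cdc37 at −0.11 and Hspa9 at −0.015. The small heat shock protein median was 0.073 with no filter, which brings in Hspb1, and it had no value with the filter of 5 CPM in 2 libraries or over 3 times background; the heat shock factors had none over 3 times background. Cdc37 was −0.013 with the 5 CPM filter. Of the wider network, the settings for which were added after seeing the data, the count called higher was 0 with library size alone, 2 with no filter, 4 with the replicate block and 0 to 3 with single libraries left out. The cause of these shifts was not tested, apart from the change in genes fitted.

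With single libraries left out, medians ran from 0.03 to 0.30 over the members, 0.12 to 0.73 for HSP90, 0.039 to 0.31 for HSP70 and HSP110, −0.14 to 0.19 for the co-chaperones and −0.09 to 0.22 for the mitochondrial genes. Single genes ran from −0.12 to 0.19 for Cdc37, −0.12 to 0.25 for Hsf1, −0.0092 to 0.47 for Hspa8, −0.17 to 0.48 for Hsp90ab1 and −0.077 to 0.35 for Hspa9. The log2 difference of the ratio ran from −0.067 to 0.24 for Hspe1 to Hspd1 and from −0.29 to 0.39 for Hspa1a plus Hspa1b to Hspa8. The extremes mostly came without NTC 1 or NTC 2, when 1 NTC library remains assumed to vary as the Fli1 KO libraries do.

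Same-numbered libraries correlated in their deviations from group means (0.303 and 0.446), but with 2 pairs and no label on what a number marks, they share only a number. The deviations of the 2 NTC libraries mirror each other by construction, so the 2 values are not independent. They cannot decide whether the numbers mark pairs. With the replicate block, 6 members were called: Hspa2 (0.55, edgeR adjusted p = 0.0355), Hsp90aa1 (0.66), Dnaja1 (0.45), Dnajb1 (0.69), Dnajb6 (0.51) and Tcp1 (0.37), and Cdc37 was −0.025. Calls over all genes went up to 728 higher and 193 lower with the block, against 140 and 27 without it. Hspa1a, Hspa1b, Hspb1 and Hspb8 lie below background, and no value of theirs is read as expression.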
